A study of Mus musculus with 4 samples.

Results

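The genes described here are 39 interferon-stimulated genes and interferon-induced GTPase genes, out of 23480 gene identifiers listed for each library. They were taken as a fixed list of symbols and matched through Entrez identifiers, and all 39 were found. Within the list, 12 genes encode guanylate-binding proteins (GBP) or immunity-related GTPases (IRG), and 27 encode antiviral effectors, nucleic acid sensors, regulators of the interferon response and other antiviral proteins. The RNA came from mouse T cells in 4 libraries. The Th9+TLA1 group (n = 2) was cultured under Th9 conditions with TLA1, the name that the sample labels use for the cytokine spelled TL1A in the series title, and the Th9 group (n = 2) was cultured under Th9 conditions alone. Both groups share the Th9 conditions, which steer helper T cells towards making interleukin 9. TL1A is a cytokine of the tumour necrosis factor family. The dose, the culture time and the mouse strain are not stated in the labels.

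Interferons reach the nucleus by a pair of routes. Type I interferons assemble a complex with STAT2 and IRF9 that binds the interferon-stimulated response element (ISRE), a motif in the promoters of most antiviral genes. Interferon gamma acts through the gamma-activated site (GAS), and in mouse cells it is known as a strong inducer of the GBP and IRG families, which attack the membranes around intracellular pathogens. T cells both make interferon gamma and respond to it.

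Gene counts summed to 2979482 and 3081187 reads for Th9+TLA1 and to 4041633 and 3167270 reads for Th9. On the scale of CPM (reads scaled to a common library total), 3 reads were worth 0.742 to 1.01, and a gene listed at 0 could lie up to that level by counting error. Whether the 2 libraries of a group stem from separate animals or cultures is not stated, so p-values refer to the spread among these 4 libraries, which may be technical. Among the marker genes of the labelled cell type, 8 of 8 T cell markers were detected, with a summed level of 3482 and 3349 CPM in Th9+TLA1 libraries and 2701 and 3084 CPM in Th9 libraries. The summed levels of 4 natural killer cell markers (1.01 and 1.30 CPM in Th9+TLA1, 3.22 and 1.89 CPM in Th9) and of 6 macrophage and dendritic cell markers (1.68 and 0 CPM in Th9+TLA1, 1.98 and 0.316 CPM in Th9) were low. The macrophage and dendritic cell markers Lyz2, Csf1r, Cd14 and Fcgr1, the natural killer cell markers Ncr1 and Klrb1c and the B cell markers Ms4a1 and Pax5 had 0 reads in all 4 libraries. The summed level of all 5 B cell markers was 28.9 and 29.2 CPM in Th9+TLA1 and 10.4 and 12.9 CPM in Th9, mostly from Cd79b (24.2 and 28.6 CPM in Th9+TLA1, 6.19 and 12.9 CPM in Th9, limma adjusted p = 0.143). The part of these markers in the results was not tested. In bulk RNA, fewer cells of a type and less RNA per cell cannot be told apart.

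The changes that passed the test all lay in the GTPases, and they went in opposite directions. With TLA1, Gbp2, a guanylate-binding protein gene, rose 2.76-fold, while Tgtp1 and Tgtp2, near-identical genes of the IRG protein Irgb6, fell 3.09-fold and 3.20-fold. No antiviral effector, sensor or regulator passed the test, and 12 of the 15 antiviral effectors had too few reads to be tested. Over all members, 22 passed the filter on low reads and 3 of those 22 were called by limma at an adjusted p under 0.05, 1 higher and 2 lower. Of all 10324 tested genes, 1.16% were called, 0.901% higher and 0.262% lower in Th9+TLA1.

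**Figure D1:**
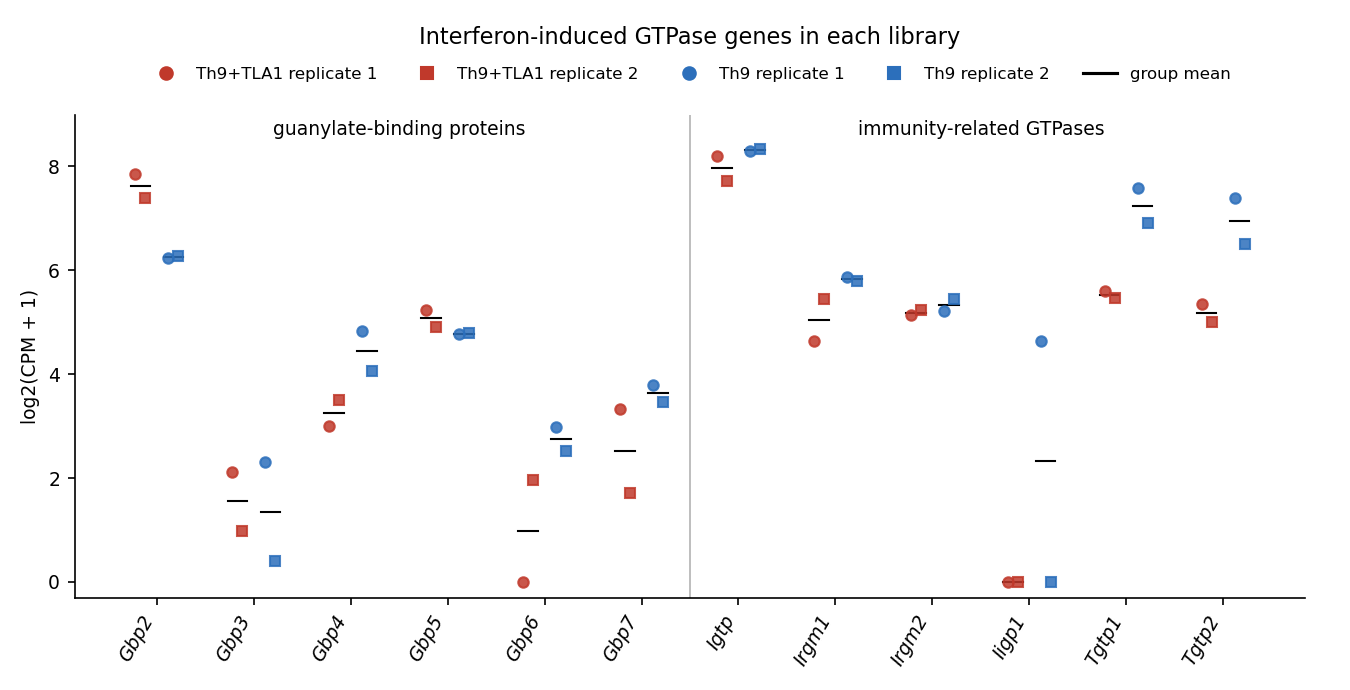
Level of each GTPase gene in each library, as log2(CPM + 1) on the vertical axis; red points are the Th9+TLA1 libraries, blue points the Th9 libraries, circles replicate 1, squares replicate 2 and bars the group means. Both Th9+TLA1 points lie above both Th9 points for Gbp2 and far below them for Tgtp1 and Tgtp2, and Iigp1 has reads in only 1 library.

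Guanylate-binding proteins are large GTPases that coat pathogen vacuoles and bacteria and prompt their lysis. The 6 members lie in 2 gene clusters. Gbp5, Gbp7, Gbp3 and Gbp2 lie on chromosome 3 between 142496934 and 142638008, and Gbp4 and Gbp6 on chromosome 5 between 105115767 and 105295871 (GRCm38.p6, the assembly of mm10). All 6 passed the filter. Gbp2 (Entrez 14469, chromosome 3, 142620663 to 142638008), one of the most strongly interferon-inducible genes of the family in mouse, had 231 and 168 CPM in Th9+TLA1 libraries, against 74.5 and 76.1 CPM in Th9 libraries. Both Th9+TLA1 libraries were above both Th9 libraries, and the Th9 pair was the tighter. The means were 199 ± 44.6 CPM in Th9+TLA1 and 75.3 ± 1.14 CPM in Th9 (SD, n = 2 each). Its log2 fold change was 1.47 ± 0.22 (SE; limma adjusted p = 0.00916, Benjamini-Hochberg over all tested genes). Each library was left out in turn, both with the low-read filter run again and with the same 10324 genes tested. The Gbp2 call was lost without Th9 replicate 2 when the filter was run again (limma adjusted p = 0.119, but 0.0161 with the same genes) and without Th9 replicate 1 with the same genes (0.0707, but 0.0481 with the filter run again). The log2 fold change stayed between 1.23 and 1.70.

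None of the 3 other members in the cluster of Gbp2 passed the test. Gbp5, which promotes assembly of the NLRP3 inflammasome, had 36.9 and 28.9 CPM in Th9+TLA1 libraries and 26.2 and 26.8 CPM in Th9 libraries. The groups did not overlap, but the difference did not pass the test (log2 fold change 0.38 ± 0.33 SE, limma adjusted p = 0.617). Gbp7 had 9.06 and 2.27 CPM in Th9+TLA1 libraries and 12.9 and 10.1 CPM in Th9 libraries, with a log2 fold change of -1.03 ± 0.64 (limma adjusted p = 0.450). Gbp3 was low and scattered in both groups, at 3.36 and 0.974 CPM in Th9+TLA1 and 3.96 and 0.316 CPM in Th9 (log2 fold change 0.27 ± 0.91, limma adjusted p = 0.926).

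On chromosome 5 the values of both genes were lower in Th9+TLA1, and neither passed. Gbp4 had 7.05 and 10.4 CPM in Th9+TLA1 libraries, against 27.5 and 15.8 CPM in Th9 libraries (log2 fold change -1.11 ± 0.47, unadjusted p = 0.0372 and adjusted p = 0.266 by limma). The groups did not overlap, with Th9 replicate 1 the highest library. Gbp6 had 0 and 2.92 CPM in Th9+TLA1 libraries and 6.93 and 4.74 CPM in Th9 libraries (log2 fold change -1.71 ± 0.84, limma adjusted p = 0.333). Parts of these genes cannot be told from neighbours by short reads: 82.9% of the 100-base windows of the Gbp6 transcript also occur in Gm43302, and Gbp4 shares exon bases with Gbp8 and Gbp9 on the same strand, whereas no 100-base window of Gbp2 or Gbp5 occurs in another gene.

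Immunity-related GTPases work as a set. Irgm1, Irgm2 and Igtp (Irgm3) protect the cell's own membranes and hold the effector IRG proteins inactive, and the effectors Tgtp1, Tgtp2 and Iigp1 load onto parasite vacuoles. Tgtp1 (Entrez 21822, chromosome 11, 48985329 to 48992246) had 47.3 and 43.2 CPM in Th9+TLA1 libraries, against 191 and 119 CPM in Th9 libraries. Tgtp2 (Entrez 100039796, chromosome 11, 49057196 to 49064212) had 39.9 and 31.2 CPM in Th9+TLA1 libraries, against 168 and 89.4 CPM in Th9 libraries. For both genes every Th9+TLA1 library was below every Th9 library, and the Th9 libraries differed more from each other than the Th9+TLA1 libraries did, with Th9 replicate 1 the higher. The means were 45.2 ± 2.94 CPM in Th9+TLA1 and 155 ± 50.5 CPM in Th9 for Tgtp1, and 35.5 ± 6.21 CPM in Th9+TLA1 and 129 ± 55.6 CPM in Th9 for Tgtp2 (SD, n = 2 each). The log2 fold changes were -1.63 ± 0.25 for Tgtp1 (SE, limma adjusted p = 0.0101) and -1.68 ± 0.30 for Tgtp2 (limma adjusted p = 0.0207).

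Tgtp1 and Tgtp2 are not independent measurements. Their longest transcripts, of 2823 and 2810 bases, aligned with 2804 identical and 6 mismatched bases (99.8% identity), and 80.0% of the 100-base windows of Tgtp1 occur unchanged in Tgtp2. The sources used here do not say how reads matching both genes were counted. The ratio of Tgtp2 to Tgtp1 reads was 0.844 and 0.722 in Th9+TLA1 libraries and 0.881 and 0.749 in Th9 libraries. These ratios overlapped between the groups. Taken as 1 feature, the pair had 260 and 229 reads in Th9+TLA1 libraries and 1450 and 661 reads in Th9 libraries, which is 87.3 and 74.3 CPM in Th9+TLA1 and 359 and 209 CPM in Th9. The summed feature fell by 1.66 on the log2 scale (limma adjusted p = 0.00690), so that the calls among the GTPases then numbered 2, Gbp2 higher and the Tgtp pair lower. Tgtp1 also shares exon bases with Gm12185 on the same strand, a predicted gene at 0.336 and 0.325 CPM in Th9+TLA1 and 6.43 and 5.05 CPM in Th9 (limma adjusted p = 0.176). Without Th9 replicate 1 neither gene kept its call, with the filter run again (limma adjusted p = 0.112 for Tgtp1 and 0.217 for Tgtp2) or with the same genes tested (0.140 and 0.245). Without Th9 replicate 2 both lost it when the filter was run again (0.0866 and 0.0913) and kept it with the same genes (0.00942 and 0.0111). Tgtp2 also lost it without Th9+TLA1 replicate 2 when the filter was run again (0.0597, but 0.0120 with the same genes). The log2 fold change stayed below zero throughout, between -1.91 and -1.33 for Tgtp1 and between -2.08 and -1.27 for Tgtp2.

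None of the other IRG members tested passed. Igtp (Entrez 16145, chromosome 11, 58199556 to 58207592) had 295 and 210.3 CPM in Th9+TLA1 libraries and 315 and 321 CPM in Th9 libraries (log2 fold change -0.26 ± 0.20, limma adjusted p = 0.558). Irgm1 had 23.8 and 42.5 CPM in Th9+TLA1 libraries and 57.2 and 54.6 CPM in Th9 libraries (log2 fold change -0.70 ± 0.32, unadjusted p = 0.0503 and adjusted p = 0.300 by limma). For Igtp and Irgm1 the groups did not overlap, and the spread lay mainly between the Th9+TLA1 libraries. Irgm2 had 34.2 and 36.7 CPM in Th9+TLA1 libraries and 36.4 and 42.6 CPM in Th9 libraries, which overlap (log2 fold change -0.058 ± 0.30, limma adjusted p = 0.954). Igtp and Irgm2 share exon bases on the same strand. Iigp1 did not pass the filter: its 97 reads all lay in Th9 replicate 1 (24.0 CPM), and it had 0 reads in Th9 replicate 2 and in both Th9+TLA1 libraries.

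Over the 11 GTPases tested, 3 log2 fold changes were above zero and 8 below, with a median of -0.70, against a median of -0.013 over all tested genes (5054 above zero and 5270 below). The 6 GBP members divided evenly, 3 above and 3 below with a median of -0.38, whereas all 5 tested IRG members were below zero. That count rests on small differences, since without Th9 replicate 2 Irgm2 was at 0.11, and Igtp was at -0.012 without Th9+TLA1 replicate 2. Leaving out Tgtp1 and Tgtp2 brought the median to -0.26. The groups did not overlap in 9 of the 11, with Th9+TLA1 higher in 2 and lower in 7. Over all tested genes the groups did not overlap in 48.1%, with Th9+TLA1 higher in 19.1% and lower in 29.0%. Summed over the family, the IRG genes had 440.0 and 364 CPM in Th9+TLA1 libraries and 792 and 627 CPM in Th9 libraries, and the GBP genes 287 and 213 CPM in Th9+TLA1 and 152 and 134 CPM in Th9. Those sums follow the most abundant members, Igtp with the Tgtp pair among the IRG genes and Gbp2 among the GBP genes.

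The sequences just before the transcription start are shown for the 3 called GTPases and for Igtp and Irgm2, whose upstream bases are also much alike, to set the called genes beside IRG genes that did not pass. Each line gives 120 bases ending at the base before the annotated start, 5′ to 3′ on the strand of the gene, from RefSeq on GRCm38.p6, and capitals mark matches to the ISRE core (GAAA, any 2 bases, GAAA) and to the GAS motif TTCNNNGAA on either strand. The positions are chr3:142620543-142620662 on the plus strand for Gbp2, chr11:48992247-48992366 and chr11:49064213-49064332 on the minus strand for Tgtp1 and Tgtp2, and chr11:58199436-58199555 and chr11:58214857-58214976 on the plus strand for Igtp and Irgm2.
Gbp2: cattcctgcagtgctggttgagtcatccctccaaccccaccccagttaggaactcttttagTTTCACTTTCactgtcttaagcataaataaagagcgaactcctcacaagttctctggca
Tgtp1: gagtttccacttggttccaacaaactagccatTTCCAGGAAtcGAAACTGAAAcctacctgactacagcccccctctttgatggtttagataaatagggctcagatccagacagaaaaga
Tgtp2: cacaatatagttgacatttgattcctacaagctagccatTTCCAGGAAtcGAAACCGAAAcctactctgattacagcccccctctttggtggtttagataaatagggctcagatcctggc
Igtp: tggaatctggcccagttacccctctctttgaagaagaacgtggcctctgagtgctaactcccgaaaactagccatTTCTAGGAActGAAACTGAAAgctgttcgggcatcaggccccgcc
Irgm2: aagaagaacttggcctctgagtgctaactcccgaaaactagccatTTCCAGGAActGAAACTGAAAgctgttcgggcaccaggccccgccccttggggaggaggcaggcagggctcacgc
Gbp2 has an ISRE core alone in these bases, read on the opposite strand and starting 59 bases before the start site. The 4 IRG genes each hold a GAS motif followed directly by an ISRE core, with 2 bases between them. Tgtp1 and Tgtp2 have the same GAS letters. Their upstream bases aligned with 100 identical and 12 mismatched bases (89.3% identity), and those of Igtp and Irgm2 with 96.7% identity. The called genes Tgtp1 and Tgtp2 and the uncalled genes Igtp and Irgm2 carry the same pair of motifs in the same arrangement.

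Over longer windows, 250 bases before to 50 bases after the start, a RefSeq window was at hand for 28 of the 39 members. An ISRE core lay in 18 of them (64.3%), a GAS motif in 11 (39.3%) and both in 8 (28.6%). Among all 27025 genes with a window, 3.99% held an ISRE core, 9.55% a GAS motif and 0.540% both. Among the 9 GTPases with a window, 9 held an ISRE core and 6 also a GAS motif (Gbp5, Gbp7, Igtp, Irgm2, Tgtp1 and Tgtp2). Among the 19 other members, 9 (47.4%) held an ISRE core, 5 (26.3%) a GAS motif and 2 (10.5%), Oas1a and Bst2, both. The plot of motif positions shows that the windows with motifs include both called genes and genes without a read, such as Rsad2. A match is a string of letters and not a measured binding site. The members without a window were Gbp4, Gbp6, Iigp1, Mx1, Mx2, Oas1b, Oas2, Usp18, Dhx58, Rtp4 and Zbp1.

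**Figure D2:**
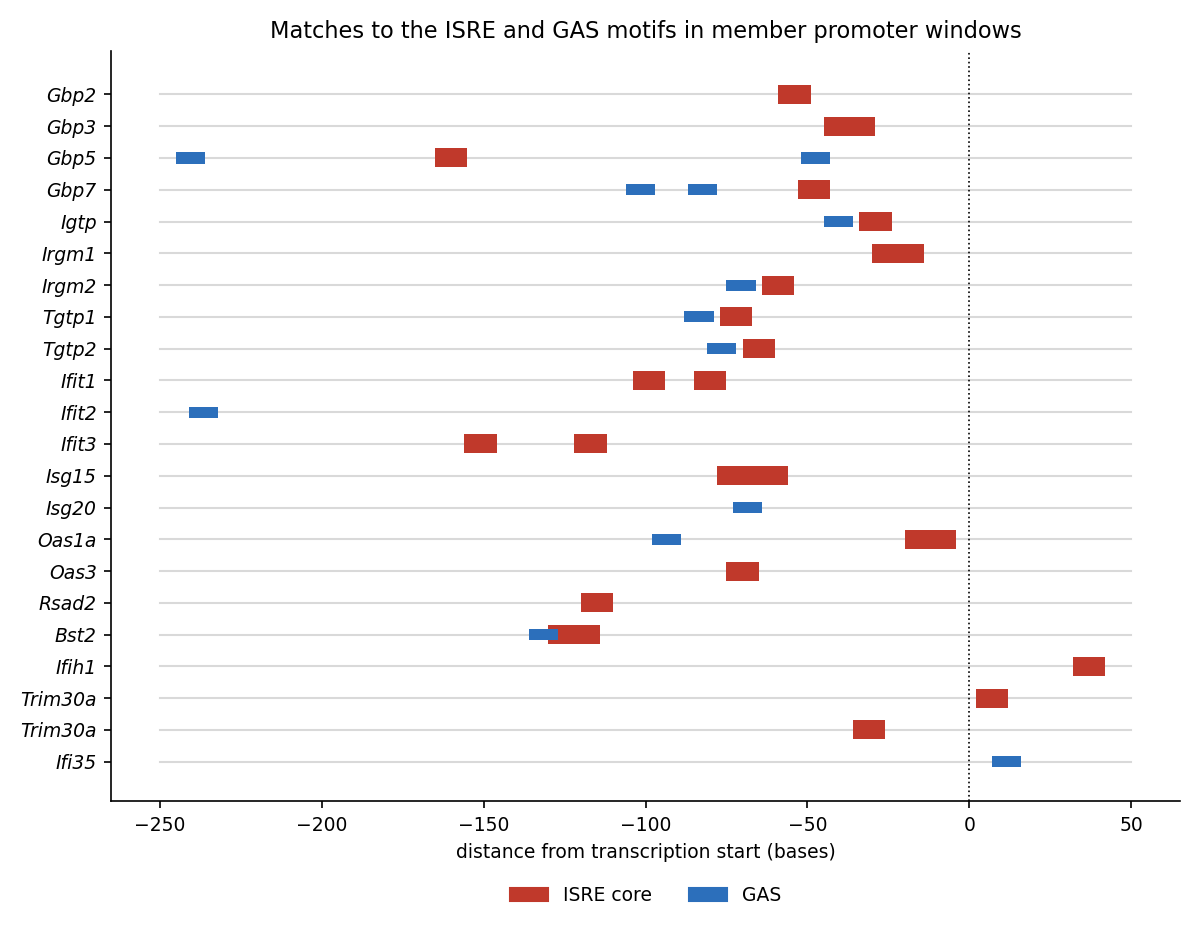
Position of each ISRE core (red) and GAS motif (blue) in the promoter windows of members with at least 1 match, as distance in bases from the transcription start (dotted line), with 1 row for each window (Trim30a has 2 starts). Igtp, Irgm2, Tgtp1 and Tgtp2 share a GAS motif placed directly before an ISRE core, and Gbp2 has an ISRE core without a GAS motif.

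Antiviral effectors act on viral nucleic acids and particles. Of the 15 effector members, 3 passed the filter on low reads and 12 did not, and Mx1, Mx2 and Rsad2 had 0 reads in all 4 libraries. Mx1 and Mx2 encode dynamin-like GTPases that trap viral nucleocapsids, and Rsad2 encodes viperin, an enzyme that makes a chain-terminating nucleotide. Bst2, which encodes tetherin, the protein that holds budding virions at the cell surface, was the most abundant effector, with 62.8 and 54.8 CPM in Th9+TLA1 libraries and 41.8 and 46.4 CPM in Th9 libraries. Its groups did not overlap, and the difference did not pass the test (log2 fold change 0.50 ± 0.27, limma adjusted p = 0.378). Ifit2, of the family that binds viral RNA ends, had 5.03 and 6.17 CPM in Th9+TLA1 libraries and 9.65 and 7.26 CPM in Th9 libraries (log2 fold change -0.43 ± 0.56, limma adjusted p = 0.756). Oas3, a synthase of the oligoadenylates that activate RNase L, had 10.1 and 3.25 CPM in Th9+TLA1 libraries and 3.71 and 2.84 CPM in Th9 libraries, with only Th9+TLA1 replicate 1 apart from the rest (log2 fold change 0.76 ± 0.70, limma adjusted p = 0.636).

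The remaining effectors had at most 28 reads in any library. Isg15, which encodes a ubiquitin-like modifier, had 5 and 28 reads in Th9+TLA1 libraries and 10 and 8 reads in Th9 libraries. Isg20, an exonuclease gene, had 0 and 7 reads in Th9+TLA1 libraries and 6 and 19 reads in Th9 libraries. Oas1a, Oas1b and Oas2, further synthases of the same oligoadenylates, had 8, 10 and 7 reads in Th9 replicate 1, 0 reads in Th9 replicate 2, and between 0 and 1 read in each Th9+TLA1 library. Ifit1, Ifit3, Oasl1 and Oasl2 had at most 3 reads in any library. At this depth no difference in these genes was detectable.

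**Figure D3:**
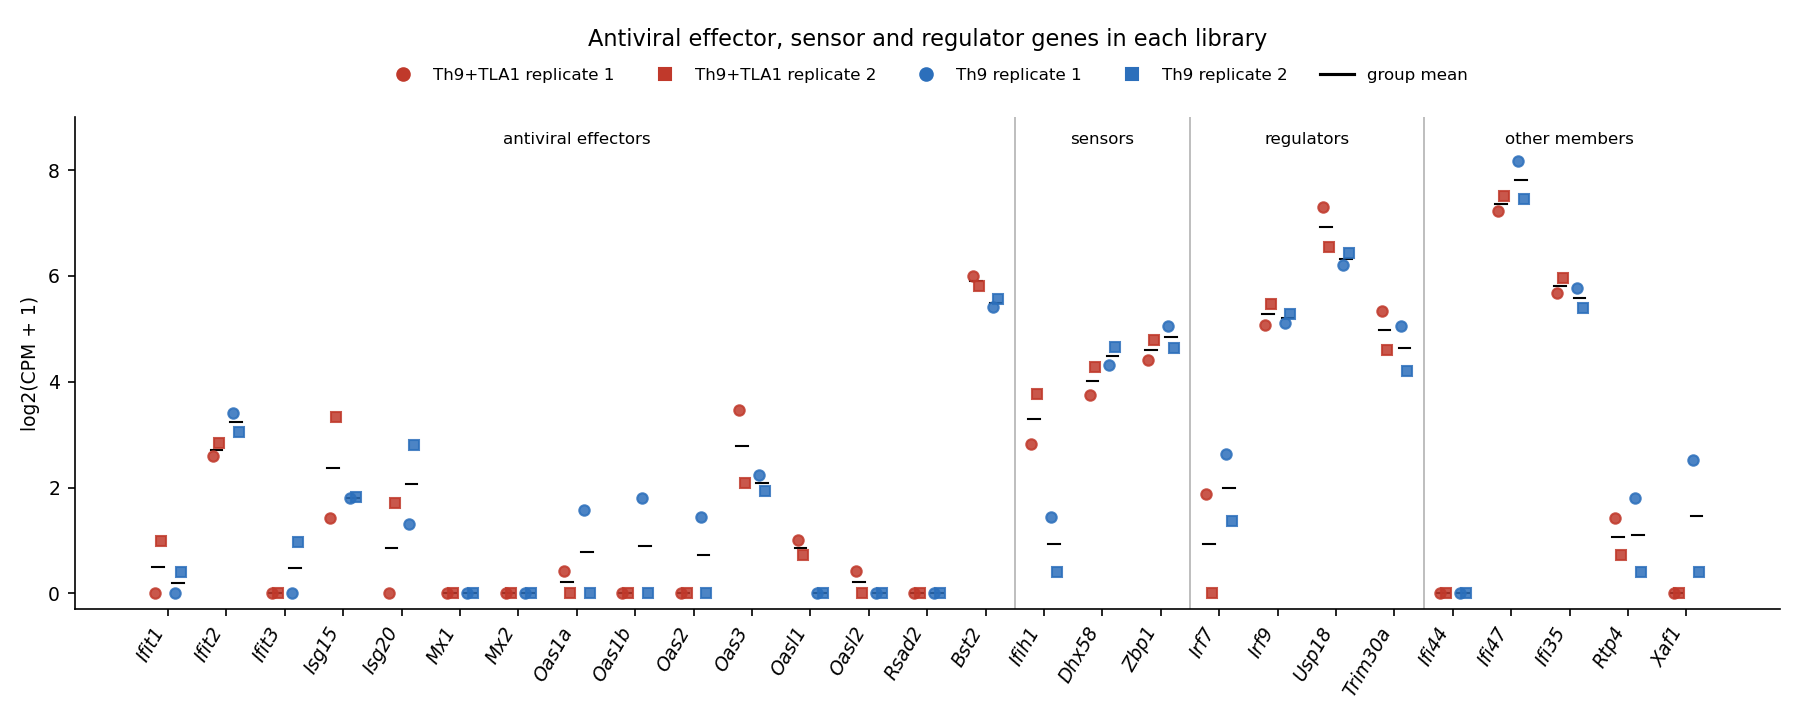
Level of each antiviral effector, sensor, regulator and other member in each library, as log2(CPM + 1) on the vertical axis; red points are the Th9+TLA1 libraries, blue points the Th9 libraries, circles replicate 1, squares replicate 2 and bars the group means. Ifi47 and Usp18 are the most abundant, Mx1, Mx2, Rsad2 and Ifi44 lie at 0 throughout, and for Ifih1 both Th9+TLA1 points lie above both Th9 points.

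All 3 nucleic acid sensors passed the filter. Ifih1, which encodes MDA5, the sensor of long double-stranded RNA, had 6.04 and 12.7 CPM in Th9+TLA1 libraries, against 1.73 and 0.316 CPM in Th9 libraries. The groups did not overlap, and Th9 replicate 2 was at 1 read. The log2 fold change was 2.44 ± 0.74, with an unadjusted p of 0.00638 that was not enough after adjustment (limma adjusted p = 0.140). Dhx58, which encodes LGP2, a helicase that tunes MDA5 and RIG-I, had 12.4 and 18.5 CPM in Th9+TLA1 libraries and 18.8 and 24.3 CPM in Th9 libraries (log2 fold change -0.38 ± 0.42, limma adjusted p = 0.702). Zbp1, a sensor of Z-form nucleic acids that can start necroptosis, had 20.1 and 26.6 CPM in Th9+TLA1 libraries and 32.4 and 24.0 CPM in Th9 libraries (log2 fold change -0.17 ± 0.36, limma adjusted p = 0.862). The Zbp1 values overlapped between the groups.

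Among the 4 regulators, 3 passed the filter and none passed the test. Usp18, which removes ISG15 from proteins and blocks signalling at the type I interferon receptor, had 157 and 92.2 CPM in Th9+TLA1 libraries and 72.7 and 85.6 CPM in Th9 libraries. Both Th9+TLA1 libraries were higher, most of all replicate 1 (log2 fold change 0.70 ± 0.27, unadjusted p = 0.0245 and adjusted p = 0.231 by limma). Irf9, the DNA-binding partner of STAT2, had 32.6 and 43.5 CPM in Th9+TLA1 libraries and 33.6 and 37.9 CPM in Th9 libraries (log2 fold change 0.16 ± 0.31, limma adjusted p = 0.844). Trim30a, which restrains NF-kB signalling after Toll-like receptor activation in mouse, had 39.6 and 23.4 CPM in Th9+TLA1 libraries and 32.4 and 17.4 CPM in Th9 libraries (log2 fold change 0.43 ± 0.40, limma adjusted p = 0.642). The groups overlapped for Irf9 and Trim30a. Irf7, the factor that amplifies type I interferon production, did not pass the filter, with 8 and 0 reads in Th9+TLA1 libraries and 21 and 5 reads in Th9 libraries.

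Of the 5 other antiviral members, Ifi47 and Ifi35 passed the filter. Ifi47 (Irgd) belongs to the IRG family and lies beside the Tgtp genes, in the stretch of chromosome 11 between 48865245 and 49096987 that also holds Irgm1. It had 148 and 182 CPM in Th9+TLA1 libraries and 286 and 175 CPM in Th9 libraries. The groups overlapped, with Th9 replicate 1 standing above the other 3 libraries (log2 fold change -0.36 ± 0.23, limma adjusted p = 0.468). Counted with the GTPases, it made 6 of 6 tested IRG genes among the members with a log2 fold change below zero, and 2 of 6 called. The 2 called were Tgtp1 and Tgtp2, which are not independent measurements. Over all 10324 tested genes, 5270 were below zero and 1.16% were called. GTPase genes outside the members were counted on a list that mixes GBP and IRG genes, so it is not a count of IRG genes alone. Of 7 such genes tested, 3 had log2 fold changes above zero, Gbp8 (1.07), Irgq (0.41) and 9930111J21Rik2 (0.025). The 4 below zero were Gbp9 (-2.05), Gm12185 (-2.28), Gm12250 (-1.01) and 9930111J21Rik1 (-0.93). None of these genes was called by limma. Ifi35, a partner of NMI, had 50.01 and 61.0 CPM in Th9+TLA1 libraries and 53.9 and 41.0 CPM in Th9 libraries (log2 fold change 0.32 ± 0.27, limma adjusted p = 0.606). Ifi44 had 0 reads in all 4 libraries. Rtp4, a chaperone of membrane receptors, had 5 and 2 reads in Th9+TLA1 libraries and 10 and 1 reads in Th9 libraries. Xaf1, a gene linked to apoptosis, had 0 reads in both Th9+TLA1 libraries and 19 and 1 reads in Th9 libraries.

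Over the 11 antiviral members tested, 0 were called by limma, and 2 (Ifih1 and Usp18) had an unadjusted p under 0.05. EdgeR's quasi-likelihood test, DESeq2 and limma voom on the recovered reads each called 0 of the 11 as well. The same unadjusted threshold was met by 16.7% of the 10324 tested genes. The log2 fold changes of the 11 antiviral members were above zero for 7 and below zero for 4, with a median of 0.32 that was 0.031 without a filter and -0.037 without Th9+TLA1 replicate 2 with the filter run again. The groups did not overlap in 5 of the 11, with Th9+TLA1 higher in 3 and lower in 2. Among all tested genes this held for 48.1%, with Th9+TLA1 higher in 19.1% and lower in 29.0%. The summed level of all 27 antiviral members was 552 and 537 CPM in Th9+TLA1 libraries and 610 and 474 CPM in Th9 libraries, which overlap.

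**Figure D4:**
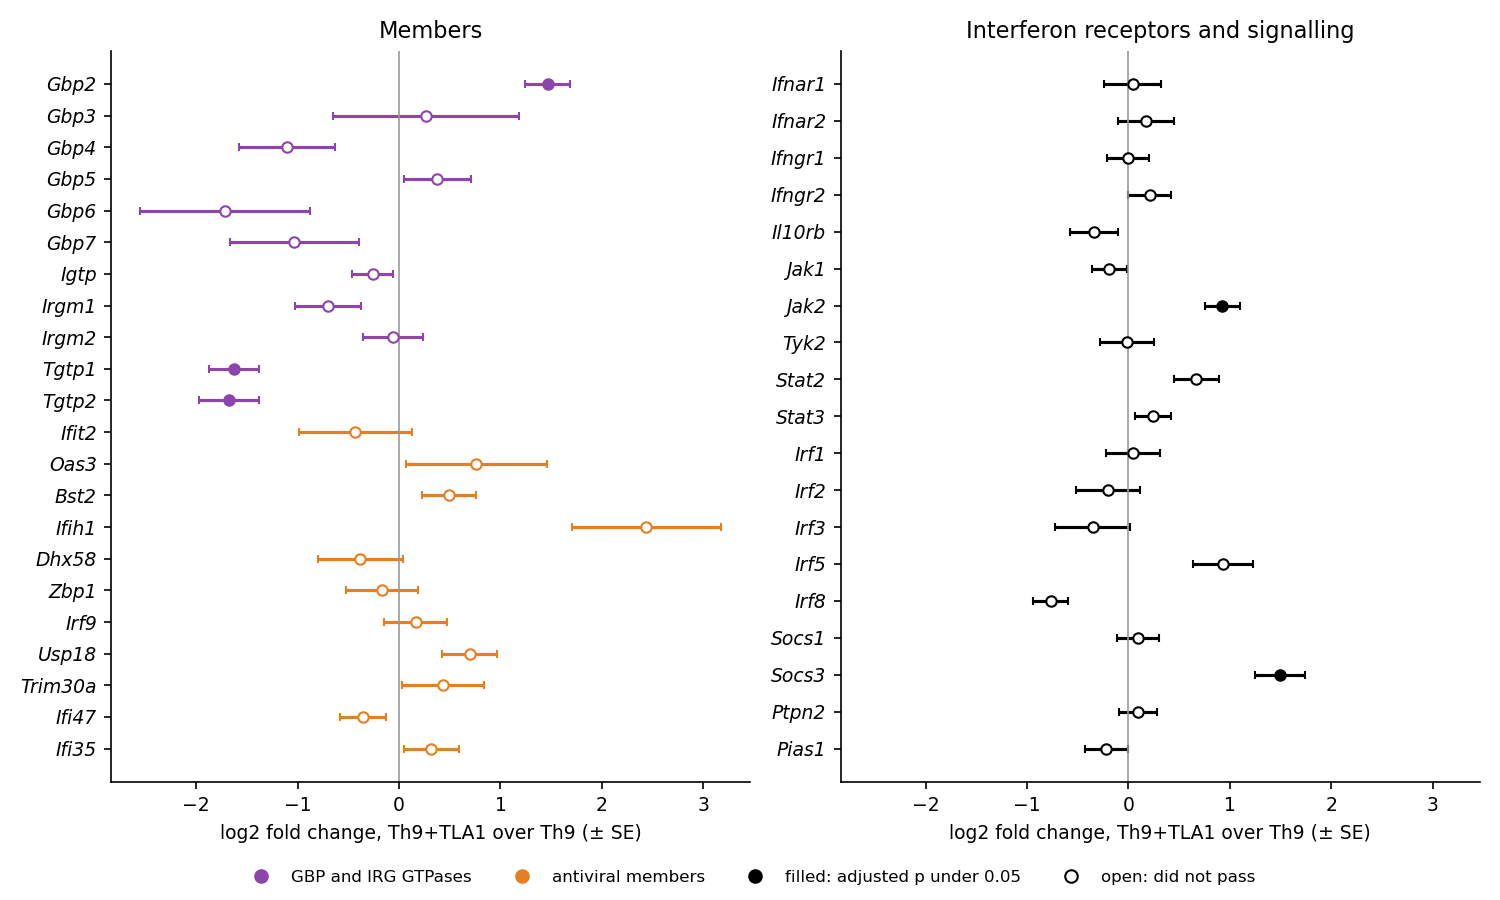
Log2 fold change of Th9+TLA1 over Th9 with its standard error (horizontal axis) for the 22 members tested (left) and for 19 tested genes of interferon receptors and signalling (right); filled points passed at a limma adjusted p under 0.05. Gbp2 lies to the right of zero, Tgtp1 and Tgtp2 to the left, and Jak2 and Socs3 are the filled points among the signalling genes.

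Levels of different genes were set side by side per kilobase of exon, over all annotated exons, which is only a rough scale. Igtp was the most abundant member in both groups, with means of 125 CPM per kilobase in Th9+TLA1 and 157 CPM per kilobase in Th9. In Th9+TLA1 it was followed by Gbp2 (79.2), Ifi47 (66.7), Bst2 (65.1) and Usp18 (44.7), and in Th9 by Ifi47 (93.3), Bst2 (48.9), Tgtp1 (48.4) and Tgtp2 (43.8). Tgtp1 and Tgtp2 had 14.1 and 12.1 CPM per kilobase in Th9+TLA1, and Gbp2 had 29.9 CPM per kilobase in Th9. By these values Gbp2 ranked above both Tgtp genes in Th9+TLA1 and below both in Th9. This ranking is uncertain, since 80.0% of the 100-base windows of Tgtp1 occur in Tgtp2. How reads matching both were counted is not stated.

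Th9 replicate 1 was the highest library for several members. It was highest for 10 of the 22 tested members, against 37.6% of all tested genes, and for 7 of the 13 members that had reads without passing the filter, among them Iigp1, Oas1a, Oas1b, Oas2, Irf7 and Xaf1. No share over all genes below the filter was at hand to set beside the 7 of 13. Th9 replicate 1 was also the deepest library. Its part in the values of these low genes was not tested. Without it the log2 fold changes were -1.33 for Tgtp1 and -1.27 for Tgtp2 with the same genes tested. With all 4 libraries they were -1.63 and -1.68. Neither gene kept its call without this library, as described above.

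Genes that carry the interferon signal were set beside the members. Of a list of 21 receptor and signalling genes, 20 passed the filter, and 2 rose, Jak2 and Socs3. Among all tested genes, limma called 0.901% higher and 0.262% lower. Stat2, a transducer of type I interferon signals, had 149 and 111 CPM in Th9+TLA1 libraries and 87.6 and 84.0 CPM in Th9 libraries (log2 fold change 0.67 ± 0.22, limma adjusted p = 0.165). The groups did not overlap, with Th9+TLA1 higher, but the test was not passed. Irf8, a factor of the IRF family that is itself induced by interferon gamma, had 234 and 236 CPM in Th9+TLA1 libraries, against 449 and 406 CPM in Th9 libraries. The log2 fold change was -0.77 ± 0.17, with a limma adjusted p of 0.0546 that missed the threshold. It passed under 6 of 19 alternatives, among them DESeq2 (adjusted p = 0.00463) and limma voom (0.0462), with a range of 0.00463 to 0.251. Irf1, which binds the ISRE after interferon gamma, had 58.4 and 52.6 CPM in Th9+TLA1 libraries and 67.8 and 48.3 CPM in Th9 libraries, which overlap (limma adjusted p = 0.959).

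The receptor genes showed no difference that passed. Ifngr1 had 103 and 98.3 CPM in Th9+TLA1 libraries and 105 and 110.2 CPM in Th9 libraries (limma adjusted p = 0.992). Ifngr2 had 93.3 and 92.8 CPM in Th9+TLA1 libraries and 92.3 and 79.6 CPM in Th9 libraries (limma adjusted p = 0.684). Both chains of the interferon gamma receptor were thus expressed in every library. Ifnar1 had 66.5 and 54.5 CPM in Th9+TLA1 libraries and 51.0 and 75.8 CPM in Th9 libraries (limma adjusted p = 0.962), and Ifnar2 had 78.2 and 63.9 CPM in Th9+TLA1 libraries and 86.4 and 51.5 CPM in Th9 libraries (limma adjusted p = 0.807). Values of both type I receptor genes overlapped. Socs1, the feedback inhibitor of interferon gamma signalling, had 165 and 126 CPM in Th9+TLA1 libraries and 147 and 140.5 CPM in Th9 libraries (limma adjusted p = 0.869).

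The called signalling genes serve cytokine receptors beyond those of interferons. Jak2 encodes a kinase of the interferon gamma receptor and of several cytokine receptors. It had 1343 and 1450 CPM in Th9+TLA1 libraries and 758 and 806 CPM in Th9 libraries. The means were 1396 ± 76.3 CPM in Th9+TLA1 and 782 ± 34.3 CPM in Th9 (log2 fold change 0.93 ± 0.17, limma adjusted p = 0.0282). Socs3, a feedback inhibitor known chiefly for interleukin 6 family receptors, had 328 and 356 CPM in Th9+TLA1 libraries and 98.5 and 168 CPM in Th9 libraries (log2 fold change 1.49 ± 0.25, limma adjusted p = 0.0152). Jak2 lost its call in both forms of fit without Th9+TLA1 replicate 1 (limma adjusted p = 0.0902 with the filter run again and 0.181 with the same genes) and without Th9+TLA1 replicate 2 (0.199 and 0.130). Without Th9 replicate 2 it lost the call only when the filter was run again (0.0772, but 0.00434 with the same genes). Socs3 lost its call without Th9+TLA1 replicate 2 when the filter was run again (0.0536, but 0.00728 with the same genes) and without Th9 replicate 1 with the same genes (0.0560, but 0.0426 with the filter run again). Without any filter neither was called (limma adjusted p = 0.0994 for Jak2 and 0.0702 for Socs3).

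None of 10 interferon genes passed the filter, and 8 of them had 0 reads in all 4 libraries. Ifng, the gene of interferon gamma, had 0 reads in both Th9+TLA1 libraries and 7 and 12 reads in Th9 libraries. Of 46 other interferon-induced genes, 36 passed the filter, and 2 rose and 0 fell. In limma 10 had an unadjusted p under 0.05, and the median log2 fold change was 0.044. Among all tested genes, 0.901% were called higher, 0.262% were called lower and 16.7% had an unadjusted p under 0.05. The 2 called genes of this list were Ly6a, the gene of the surface protein Sca-1, and its chromosome 15 neighbour Ly6e. Ly6a had 277 and 217 CPM in Th9+TLA1 libraries, against 21.8 and 38.5 CPM in Th9 libraries (log2 fold change 3.13 ± 0.29, limma adjusted p = 4.80e-04). Ly6e had 203 and 173 CPM in Th9+TLA1 libraries, against 54.4 and 69.5 CPM in Th9 libraries (log2 fold change 1.68 ± 0.23, limma adjusted p = 0.00483), and lost its call without Th9 replicate 2 when the filter was run again (0.0772, but 0.00434 with the same genes). The groups of both genes lay far apart.

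Among 15 other genes of the interferon GTPase families, 7 passed the filter and 0 were called by limma (3 at an unadjusted p under 0.05). Whether each of these genes is induced by interferon was not tested. Their log2 fold changes were above zero for 3 and below for 4, with a median of -0.93. Among all tested genes, limma called 1.16%, and 16.7% had an unadjusted p under 0.05. Gm12250, which encodes the effector IRG protein Irgb10, had 28.2 and 28.2 CPM in Th9+TLA1 libraries, against 62.1 and 61.3 CPM in Th9 libraries. The replicates lay close together and the groups apart, but the test was not passed (log2 fold change -1.01 ± 0.28, limma adjusted p = 0.117). The genes of this list that are named in the text were named after their values were seen.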

How the data were processed

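RNA-seq was run on 4 libraries of mouse T cells, 2 Th9+TLA1 and 2 Th9, from low-input cDNA sequenced on Ion Torrent with a kit that does not mark strand, per the labels' protocols. The authors deposited CPM per gene, made with HTSeq 0.5.4 and edgeR on mm10, per the submitters' processing notes. Neither aligner nor annotation is given in the sources used here. Every non-zero CPM (100%) was a whole number of reads within a tolerance of 0.01 read, so reads could be recovered.

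Identifiers were named and placed with a RefSeq table of GRCm38.p6, which matched 23383 of 23480. Genes were kept by filterByExpr on recovered reads (minimum count 10), leaving 10324. CPM were divided by TMM factors (0.964 to 1.06), and log2(CPM + 1) was fitted with limma, with group as the sole term and eBayes moderation along the mean trend. Fold changes are on this scale, whose pseudocount of 1 CPM makes changes of low genes look smaller. Calls needed an adjusted p (Benjamini-Hochberg) under 0.05. EdgeR's quasi-likelihood test on the recovered reads called 110 genes, against 120 by limma. The limma and edgeR fits were also run on counts simulated from the means and spread of these libraries. That run checks the code and does not bear on the calls made here. Replicates were not copies of 1 library, since the chi-square per degree of freedom between their counts was 7.80 for Th9+TLA1 and 12.7 for Th9. Exon bases, transcripts and shared 100-base windows came from GENCODE vM21 on the same assembly.

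The members and lists were chosen with earlier results of these data known. Values in every library are given for called members, tested GTPases, the 3 most abundant members of each role group, a fixed set of signalling genes (Stat2, Irf1, Irf8, Ifngr1, Ifngr2, Ifnar1, Ifnar2 and Socs1), and called genes of the lists. Of the fixed set and of the plotted signalling genes, 1 gene is not reported here. Other members named were chosen after their values were seen. Alternatives were other pseudocounts (0.5 and 4 CPM), no filter or a minimum count of 30, RLE or total count scaling, a block for the replicate number, limma voom, edgeR and DESeq2 run on recovered reads, the Tgtp genes summed, Ifi47 counted as a GTPase, and each library left out. Leaving out a library with the same genes tested was added after seeing the data. Software was DESeq2 1.42.0, edgeR 4.0.16 and limma 3.58.1 in R 4.3.3, and Biopython 1.88, matplotlib 3.10.9, numpy 2.4.6 and pandas 2.3.3 in Python 3.11.15.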

Additional observations from a re-analysis of the deposited data

How the results depend on the processing

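The 3 GTPase calls held under other pseudocounts, a minimum count of 30, RLE and total count scaling, edgeR, DESeq2 and voom; without a filter Tgtp2 was not called (adjusted p = 0.0709). The GTPase calls numbered 0 to 3 when each library was left out. Without Th9 replicate 1 there was 1 with the filter run again and 0 with the same genes tested, and without Th9 replicate 2 there were 0 and 3. The lone library of a group is then assumed to vary like the others. Antiviral calls numbered 0 to 1 in those fits, the 1 being Usp18 without Th9+TLA1 replicate 2 with the same genes tested (adjusted p = 0.0488). Over all genes, 120 calls became 273 with DESeq2, 33 without a filter, 73 with total count scaling and 20 to 155 with a library left out. With the same genes tested these counts were 31 without Th9 replicate 1, 312 without Th9 replicate 2, 67 without Th9+TLA1 replicate 1 and 241 without Th9+TLA1 replicate 2. Calls in the pathway lists numbered 4, 2 without a filter and 2 to 6 with a library left out. The cause was not tested.

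The GTPase median of -0.70 lay between -0.91 and -0.21 with a library left out. The antiviral median of 0.32 was 0.24 at a minimum count of 30, 0.031 without a filter, 0.23 with total count scaling and -0.037 to 0.38 with a library left out (0.38, 0.18, 0.063 and 0.18 with the same genes tested). Of 391 log2 fold changes of members under the alternatives, 10 changed sign, all with a library left out. They were Irf9 without Th9+TLA1 replicate 2 (range -0.034 to 0.36, and -0.033 with the same genes tested), Gbp3 without Th9 replicate 2 and without Th9+TLA1 replicate 1 (range -0.65 to 0.85, and -0.65 and -0.32), Irgm2 without Th9 replicate 2 (range -0.22 to 0.11, and 0.10) and Zbp1 without Th9+TLA1 replicate 1 (range -0.36 to 0.017, and 0.016). Of the 15 effectors, 12 did not pass the filter, and whether depth or low expression is the reason was not tested.

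With the replicate number as a block, 223 genes were called and the block changed no call among the members (adjusted p = 0.00174 for Gbp2, 0.00122 for Tgtp1 and 0.00168 for Tgtp2). Deviations of same-numbered libraries had a correlation of -0.011, and the labels do not say that numbers pair libraries.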
